A study of Mus musculus with 18 samples.

Results

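The comparison described here sets the cerebellum of wild-type (WT) mice against the cortex of the same mice, over all genes read by the array. It uses 6 of the 18 arrays of the study, the 3 titled as WT cerebellum and the 3 titled as WT cortex, chosen by their titles and paired by the animal number in them. The WT animals carry the numbers 3405, 3406 and 3396, and values of single arrays are given in that order of animals. The other arrays hold the hippocampus of the same WT mice, and the cerebellum, cortex and hippocampus of 3 mice lacking Aldh5a1 (KO), a gene for an enzyme of GABA breakdown to which no probe set of the array was assigned. Total RNA was hybridised to 1 Affymetrix mouse array per animal and region. The labels give no age, sex, strain or dissection method, and their source field names hippocampus for every sample, so titles and descriptions were used for the region.

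The cerebellum is built around a vast population of small granule cells and a single layer of large Purkinje cells, which are inhibitory and carry the whole output of the cerebellar cortex. Bergmann glia, specialised astrocytes, wrap the Purkinje cell dendrites. The cerebral cortex is made mostly of excitatory pyramidal neurons, with a minority of inhibitory interneurons that are told apart by neuropeptides and calcium-binding proteins. The regions come from different parts of the neural tube, the cerebellum from the hindbrain and the cortex from the forebrain, and keep different transcription factors into adult life.

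The measured value was a probe set intensity on a linear scale, called signal here, which the authors had scaled to the same trimmed mean on every array. Signals under 9.46, the 20th percentile of all values, were raised to that floor before log2 was taken, and a fold is called "at least" where all 3 arrays of the other region lay under it. Of 12488 probe sets, 8382 were kept for testing, and those with 1 gene symbol named 6249 genes, each represented by its brightest probe set. Differences are cerebellum minus cortex in log2 units with the standard error (SE) of limma, a linear model fitted to all 18 arrays with the animal as a block. Adjusted p are limma's with Benjamini-Hochberg adjustment over the 8382 probe sets, and a gene is called higher or lower where this was under 0.05. The 6 arrays were not alike in every technical measure. Median signal was 53.5 to 56.9 on the cerebellum arrays and 62.2 to 63.7 on the cortex arrays, and 21.2% to 24.3% of probe sets lay under the floor in cerebellum, against 16.9% to 18.6% in cortex. The ratio of 3′ to 5′ control probe sets, a sign of RNA integrity and labelling, averaged 0.796 ± 0.00677 for Gapdh in cerebellum and 0.903 ± 0.0202 in cortex (SD, n = 3 each), and 1.28 ± 0.0951 for actin in cerebellum and 1.77 ± 0.140 in cortex. The part of these measures in the results below was not tested.

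The cerebellum array of animal 3396 stood apart in RNA of the choroid plexus, the epithelium that secretes cerebrospinal fluid. Ttr, the transthyretin gene that defines this tissue, had signals of 27.0, 88.1 and 1112 in cerebellum and 222, 403 and 711 in cortex. Its difference was -1.53 ± 0.85 (adjusted p = 0.16), and -2.62 ± 0.75 (adjusted p = 0.017) without animal 3396. The summed signal of the 11 kept genes of the choroid plexus list was 2083, 1760 and 4350 in cerebellum and 1844, 2058 and 2731 in cortex. With all animals none of the 11 was called, against 42.7% of all genes. Of the 11, 2 were called lower without animal 3396, and 2 were called higher after quantile normalization or median scaling. The fibroblast and meninges genes summed to 5530, 6169 and 8186 in cerebellum and 5579, 5659 and 6148 in cortex, and the blood genes to 5860, 5766 and 8037 in cerebellum and 5500, 6616 and 6505 in cortex. Animal 3396 was highest in cerebellum for all 3 lists, and the part of such tissue in other genes was not tested.

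Differences between the regions were widespread. Of the 8382 probe sets, 43.2% were called, 1602 higher in cerebellum (19.1%) and 2018 lower (24.1%). Of the 6249 genes, 2671 were called (42.7%), 1240 higher (19.8%) and 1431 lower (22.9%). The 3 cerebellum and 3 cortex values did not overlap for 46.5% of genes. The balance of higher and lower genes depended on how the arrays were scaled: 46.4% of called genes were higher in cerebellum as deposited, 51.6% after quantile normalization and 66.5% after median scaling, which moved the median difference of all genes by 0.17. Most differences were small beside the largest. The median absolute difference was 0.73 among called genes, and the median SD of log2 signal over 3 arrays was 0.22 in cerebellum and 0.19 in cortex. At least a 4-fold difference was found for 110 genes higher and 105 genes lower, and at least a 16-fold difference for 11 higher and 10 lower. Of the 2671 called genes, 2579 differed in the same direction within all 3 animals.

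**Figure D1:**
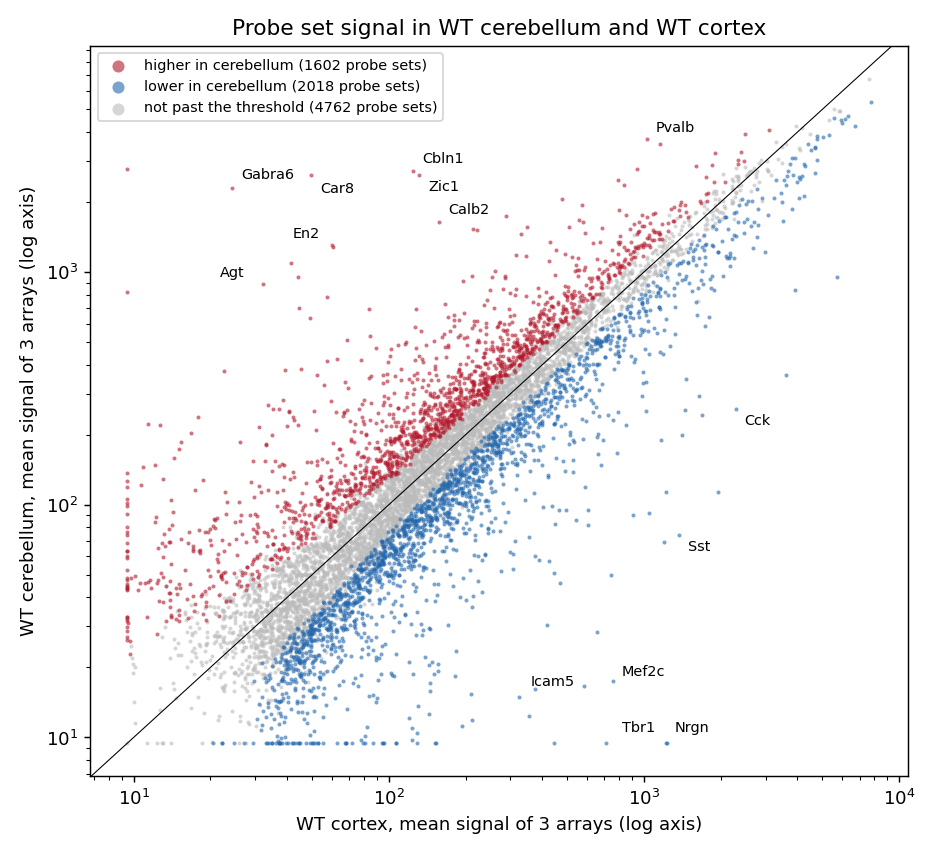
Mean signal of each kept probe set in WT cortex (horizontal) and WT cerebellum (vertical), both on log axes, 3 arrays each, with means under the floor of 9.46 drawn at the floor. Red points were called higher in cerebellum (1602), blue points lower (2018), and named genes such as Gabra6 and Tbr1 lie far from the diagonal line of equal signal.

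The largest difference upward was that of Gabra6, the alpha6 subunit of the GABA-A receptor, which granule cells use. Its signals were 2282, 2480 and 2113 in cerebellum, against 29.7, 13.8 and 29.3 in cortex, a difference of 6.64 ± 0.26 (99.8-fold, adjusted p = 1.1e-10). Car8, a carbonic anhydrase relative that binds the IP3 receptor of Purkinje cells, had signals of 3061, 2234 and 2562 in cerebellum and 39.2, 55.1 and 54.4 in cortex, a difference of 5.73 ± 0.24. Agt, the angiotensinogen made by astrocytes of the hindbrain, had 871, 773 and 1021 in cerebellum and 16.7, 34.1 and 46.0 in cortex, a difference of 4.89 ± 0.49. The regions lay far apart for all 3 genes. Downward, Tbr1, a transcription factor of deep-layer pyramidal neurons, had signals of 5.76, 6.74 and 2.36 in cerebellum, all under the floor, and 1049, 1487 and 1121 in cortex, at least 127-fold lower (-6.99 ± 0.16, adjusted p = 4.9e-13). Nrgn, the postsynaptic calmodulin-binding protein neurogranin, had 4.68, 3.27 and 11.05 in cerebellum and 1438, 1161 and 1109 in cortex (-6.95 ± 0.21). In both cases the cerebellum arrays sat at or near the floor.

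The promoters of the 2 largest genes in each direction that had an entry in the RefSeq promoter table (GRCm38.p6) are shown for the sequence context of these differences, as the 250 bases before the annotated start, 5′ to 3′ on the gene's strand. Car8 was not in the table. They lie at chr11:42321073-42321322 for Gabra6 (minus strand), chr8:124569707-124569956 for Agt (minus strand), chr2:61804203-61804452 for Tbr1 (plus strand) and chr9:37552746-37552995 for Nrgn (minus strand). Capitals mark every match to a searched motif on either strand.
Gabra6: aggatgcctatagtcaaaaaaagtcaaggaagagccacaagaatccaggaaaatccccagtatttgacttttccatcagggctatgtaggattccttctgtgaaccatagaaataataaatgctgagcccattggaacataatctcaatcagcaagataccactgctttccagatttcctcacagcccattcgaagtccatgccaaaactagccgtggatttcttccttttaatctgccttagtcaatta
Agt: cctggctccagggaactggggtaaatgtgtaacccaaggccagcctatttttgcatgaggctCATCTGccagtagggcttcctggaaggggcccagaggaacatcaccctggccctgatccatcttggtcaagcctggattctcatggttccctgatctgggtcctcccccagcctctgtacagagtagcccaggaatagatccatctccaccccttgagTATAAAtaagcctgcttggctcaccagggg
Tbr1: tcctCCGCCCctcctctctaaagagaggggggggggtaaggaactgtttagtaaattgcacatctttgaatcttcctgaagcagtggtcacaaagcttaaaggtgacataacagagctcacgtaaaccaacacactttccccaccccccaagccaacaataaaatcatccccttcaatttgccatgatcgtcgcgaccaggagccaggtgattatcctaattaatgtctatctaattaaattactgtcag
Nrgn: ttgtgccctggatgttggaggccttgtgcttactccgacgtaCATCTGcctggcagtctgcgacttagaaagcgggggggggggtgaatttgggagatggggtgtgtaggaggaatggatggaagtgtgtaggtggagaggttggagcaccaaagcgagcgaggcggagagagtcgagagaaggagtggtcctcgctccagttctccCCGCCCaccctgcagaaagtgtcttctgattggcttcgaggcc
The motifs were the TATA box TATAAA, the GC box GGGCGG, the E-boxes CAGCTG and CAGATG, the cyclic AMP element TGACGTCA and the EGR site GCGTGGGCG. Agt held a TATA box starting 30 bases before its start and a CAGATG E-box at -188. Nrgn held a CAGATG E-box at -208 and a GC box at -43, Tbr1 held a GC box at -246, and Gabra6 held none of these letters. All of these but the TATA box of Agt lie on the other strand, so that the E-box reads CATCTG and the GC box CCGCCC in the lines above. Among the 25 genes with the largest difference in each direction, 19 of the higher and 16 of the lower had a promoter in the table. A GC box was in 11 of the 19 higher and 8 of the 16 lower, against 32.9% of all 27025 promoters of the same window. A TATA box was in 2 of 19 and 2 of 16 (13% of all), CAGCTG in 3 of 19 and 3 of 16 (12.8%), and CAGATG in 4 of 19 and 2 of 16 (14.5%). The cyclic AMP element was in 1 of each, Uncx among the higher and Sst among the lower (1.62% of all), and the EGR site in none (0.54%).

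Granule cell genes were higher in cerebellum for the most part. Of the 32 genes of this list, 22 were on the array and all 22 were kept. Of these, 17 were called higher and 2 lower, with a median difference of 1.62, against 19.8% and 22.9% of all genes and a median of -0.04. The filter keeps a gene that is read in only 1 region, so such counts over kept genes are a description and favour differences. In bulk tissue, fewer cells of a type and less RNA per cell cannot be told apart. Neurod1, a transcription factor of granule cell differentiation, had signals of 1314, 1046 and 910 in cerebellum and 44.2, 39.6 and 40.7 in cortex (4.70 ± 0.15). Zic1, a zinc finger factor of granule cell precursors, had 2662, 2529 and 2684 in cerebellum and 117, 154 and 125 in cortex (4.32 ± 0.22). Neither gene's values overlapped between regions. Uncx, a homeobox factor, had 211, 256 and 202 in cerebellum and 8.37, 3.53 and 22.2 in cortex (4.14 ± 0.30). Calb2, the calcium-binding protein calretinin of granule cells and of some cortical interneurons, had 1584, 1808 and 1559 in cerebellum and 165, 151 and 158 in cortex (3.39 ± 0.11). Smaller differences were those of Il16 (3.33 ± 0.19), the extrasynaptic GABA-A subunit Gabrd (2.09 ± 0.24), the NMDA receptor subunit Grin2c (1.91 ± 0.14) and the A-type potassium channel Kcnd2 (1.32 ± 0.22). The 2 lower members were Mef2c (-5.52 ± 0.24), whose signals of 30.8, 14.7 and 6.997 in cerebellum stood against 787, 872 and 608 in cortex, and Snap25 (-0.42 ± 0.10), which lost its call under both other scalings and without animal 3405. Mef2c, a factor of activity-dependent transcription, is also on the forebrain lists.

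**Figure D2:**
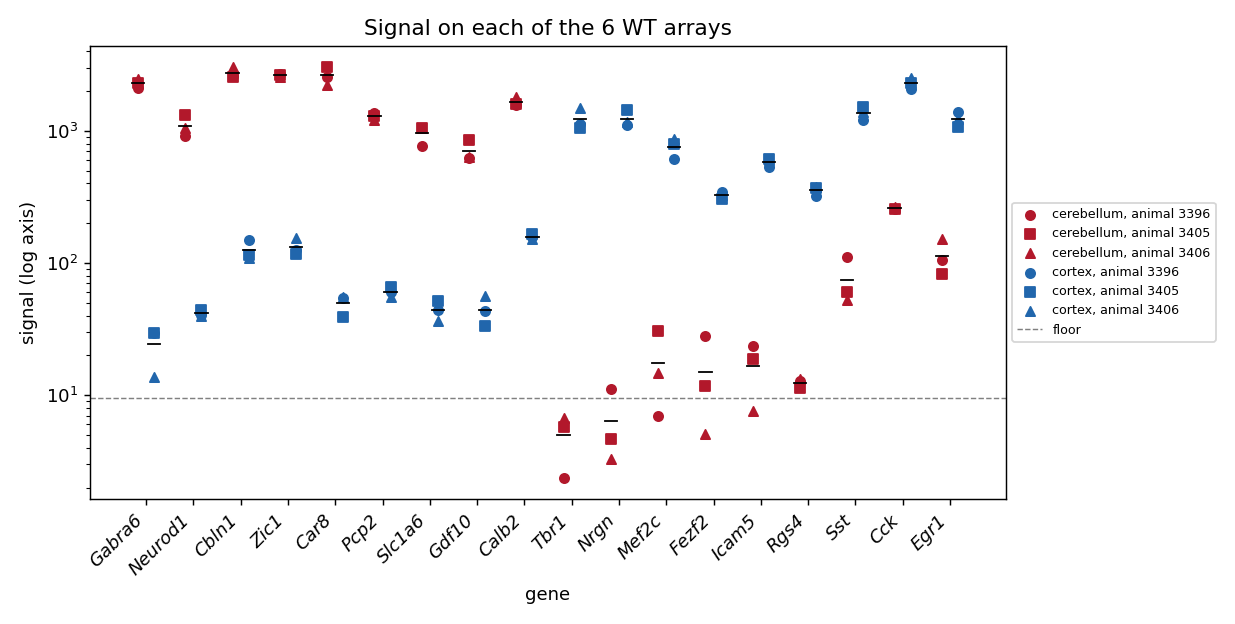
Signal of 18 genes on each of the 6 WT arrays (log axis), cerebellum in red left of cortex in blue, with a marker shape per animal, a bar at the mean of 3 arrays and a dashed line at the floor of 9.46. The 9 genes at the left lie higher in cerebellum on every array and the 9 at the right lower on every array, with Tbr1 under the floor in all 3 cerebellum samples.

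Purkinje cell genes differed in the same direction. Of 43 genes, 27 were on the array and 23 were kept, with 19 called higher, 1 lower and a median difference of 2.16. Among all genes, 19.8% were called higher and 22.9% lower. Pcp2, a G protein regulator found in Purkinje cells and retinal bipolar cells, had signals of 1290, 1197 and 1364 in cerebellum and 66.0, 55.3 and 60.4 in cortex (4.41 ± 0.34). Slc1a6, the glutamate transporter of Purkinje cell spines, had 1054, 1041 and 771 in cerebellum and 51.7, 36.2 and 44.1 in cortex (4.44 ± 0.22). The regions did not overlap for either gene. The calcium handling of these cells is represented by Atp2a3, a calcium pump of the endoplasmic reticulum (3.03 ± 0.24), by Cacna1g, a T-type channel (2.33 ± 0.24), by Calb1, the calcium buffer calbindin (1.502 ± 0.12), and by Cacna1a, the P/Q-type channel (1.23 ± 0.39). Cacna1a overlapped between the regions and lost its call without animal 3406 or 3396. Homer3, a scaffold of metabotropic glutamate receptors, had 518, 533 and 476 in cerebellum and 65.9, 67.3 and 73.3 in cortex (2.89 ± 0.17). Rgs8, a regulator of G protein signalling, had 1783, 1510 and 1273 in cerebellum and 240, 214 and 212 in cortex (2.77 ± 0.12). Both were several-fold higher on every cerebellum array. The transcription factors Ebf1 (2.72 ± 0.44) and Rora (1.40 ± 0.18) were also higher, and Rora is the gene mutated in the staggerer mouse, which loses Purkinje cells. Inpp4a, a phosphoinositide phosphatase, was the lower member (-0.58 ± 0.15), and lost its call without animal 3405, while 2 members were lower without 3396.

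Bergmann glia genes were higher for 11 of 15 kept genes and lower for 2, with a median of 1.47, against 19.8% and 22.9% of all genes. The lower count was 1 without animal 3405, without 3406 and after median scaling. Gdf10, a growth factor of the TGF-beta family made by Bergmann glia, had signals of 857, 630 and 627 in cerebellum and 33.4, 56.2 and 43.6 in cortex (4.005 ± 0.20). Dao, the D-amino acid oxidase that breaks down D-serine, had 370, 385 and 334 in cerebellum and 68.1, 33.2 and 56.3 in cortex (2.85 ± 0.25). Neither overlapped. Hopx (2.16 ± 0.14), Septin4 (2.11 ± 0.17), the AMPA receptor subunit Gria4 (1.92 ± 0.30) and the Hedgehog receptor Ptch1 (1.80 ± 0.14) were higher too. Hes5, a Notch target, was at least 3.43-fold lower, with 3.47, 4.46 and 8.26 in cerebellum, all under the floor, and 22.7, 38.4 and 39.4 in cortex. Among 10 kept genes of cerebellar interneurons and nuclei, 6 were higher and 1 lower, beside the same 19.8% and 22.9% of all genes. Without animal 3405, 3 of the 10 were higher, and without 3406, 2 were lower. Eomes, the T-box factor of unipolar brush cells, was at least 8.73-fold higher, with 153, 64.8 and 56.9 in cerebellum and 2.21, 3.53 and 2.73 in cortex. Tfap2b, a factor of inhibitory precursors, was also higher (2.27 ± 0.35), and Nxph1, a neurexin ligand, was lower (-1.07 ± 0.16).

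Patterning genes of the hindbrain were more often higher than lower, and forebrain transcription factors more often lower than higher. Among all genes, 19.8% were called higher and 22.9% lower. Of 21 kept genes of cerebellar and hindbrain patterning, 10 were higher, 2 lower and 9 not called (median 0.70). En2, an engrailed factor of the midbrain and hindbrain border, had signals of 1438, 1250 and 1244 in cerebellum and 67.0, 52.3 and 61.2 in cortex (4.45 ± 0.20). Zic4, whose cortex arrays were all under the floor, was at least 6.47-fold higher, and Meis1 differed by 2.13 ± 0.34 while its relative Meis2 was lower (-1.86 ± 0.33). Of 24 kept forebrain transcription factors, 18 were lower and 4 higher (median -1.97). Fezf2, which specifies subcortical projection neurons, had 11.6, 5.12 and 28.0 in cerebellum and 304, 327 and 345 in cortex (-4.48 ± 0.32). Neurod6 was at least 15.9-fold lower, with 2.68, 3.23 and 3.14 in cerebellum and 138, 123 and 199 in cortex. Dlx1, a factor of interneurons born in the ventral forebrain, was at least 10-fold lower, with 1.03, 1.30 and 1.44 in cerebellum and 95.0, 93.9 and 96.4 in cortex. Neurod6 and Dlx1 were under the floor on every cerebellum array, and Fezf2 on 1 of the 3. The Neurod family was split, with Neurod1 and Neurod2 (0.83 ± 0.17) higher and Neurod6 lower. The other higher members were Id4 (0.88 ± 0.13), Id2 (0.45 ± 0.10) and Cux1 (0.38 ± 0.11), and Cux1 lost its call without animal 3406 or 3396.

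Genes of forebrain excitatory neurons were lower in cerebellum for 31 of 38 kept genes and higher for 4 (median -1.30). Among all genes, 22.9% were called lower and 19.8% higher. Icam5, the telencephalic adhesion molecule of dendrites, had signals of 18.8, 7.63 and 23.4 in cerebellum and 615, 602 and 536 in cortex (-5.18 ± 0.31). Rgs4, which limits Gq and Gi signalling, had 11.3, 13.2 and 12.8 in cerebellum and 366, 377 and 323 in cortex (-4.84 ± 0.18). Crym, a thyroid hormone binding protein, was at least 13.6-fold lower, and Camk2a, the alpha subunit of the calcium and calmodulin kinase of spines, at least 9.10-fold lower, with 4.31, 5.30 and 6.35 in cerebellum and 133, 105 and 46.1 in cortex. The neuronal calcium sensors Hpca (-2.06 ± 0.10) and Vsnl1 (-1.06 ± 0.13) and the calcineurin subunit Ppp3r1 (-1.28 ± 0.09) were lower with clear signal in cerebellum, for Hpca 323, 372 and 345 in cerebellum and 1623, 1578 and 1176 in cortex. The 4 higher members were Calb1, the pentraxin Nptx1 (1.33 ± 0.15), Camk4 (0.89 ± 0.15) and Neurod2. Dlg4, the scaffold PSD-95, was not called (0.33 ± 0.28).

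Interneuron markers went both ways, with 8 of 26 kept genes higher and 15 lower (median -1.21), against 19.8% and 22.9% of all genes. Sst, the neuropeptide somatostatin, had signals of 59.9, 52.9 and 110 in cerebellum and 1516, 1393 and 1210 in cortex (-4.28 ± 0.22). Vip (-3.24 ± 0.33), Tac1 (-3.28 ± 0.28) and Tac2 (at least 10.3-fold lower) encode other cortical neuropeptides, and none overlapped between the regions. Pvalb, the calcium buffer parvalbumin of fast-spiking cortical interneurons and of Purkinje and molecular layer cells, had 3508, 3581 and 4081 in cerebellum and 1243, 944 and 896 in cortex (1.87 ± 0.12). Nos1, the neuronal nitric oxide synthase, was higher (1.74 ± 0.30), as were Penk, the enkephalin precursor (0.87 ± 0.15, with 0.26 ± 0.48 and no call for its other kept probe set), and the vesicular GABA transporter Slc32a1 (0.45 ± 0.13), which overlapped and lost its call without animal 3405. Over the whole neuropeptide list, 14 of 24 kept genes were lower and 2, Cbln1 and Penk, were higher (median -0.68). Of 12 kept striatal genes, 8 were lower and 1 higher (median -1.29), and of 14 hippocampal genes 7 were lower and 3 higher (median -0.43). Tdo2, the tryptophan dioxygenase, was the largest of those higher, with 180, 165 and 132 in cerebellum and 9.43, 22.8 and 10.9 in cortex (3.56 ± 0.31), but its other kept probe set was not called (0.13 ± 0.32). Of 10 thalamus and brainstem genes, 4 were higher, Zic1, Calb2, Rora and Prkcd, and 2 lower, among them Slc6a4, the serotonin transporter (-0.99 ± 0.25). Neither of the 2 was called without animal 3405.

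Receptor families held members called in both directions. Over all 6249 genes, 19.8% were called higher and 22.9% lower, and the counts below were not tested against these shares. GABA-A receptors are pentamers whose subunits set their location and drug sensitivity. Of 12 kept GABA and glycine receptor genes, 2 were higher, Gabra6 and Gabrd, and 4 lower, although 5 were higher after median scaling. Gabrb1 had signals of 215, 190 and 180 in cerebellum and 701, 610 and 647 in cortex (-1.75 ± 0.10). The alpha subunits Gabra3 (-2.10 ± 0.35) and Gabra2 (-1.72 ± 0.40) and the gamma subunit Gabrg3 (-1.16 ± 0.23) were lower, and Gabra2 lost its call without animal 3396. Gabbr1, a GABA-B subunit, was not called (0.21 ± 0.10), nor was Glrb of the glycine receptor (0.15 ± 0.11), though both were called higher after median scaling. Of 14 kept ionotropic glutamate receptor genes, 5 were higher and 5 lower, with 3 higher when any 1 of the 3 WT animals was left out. Gria3 (-2.05 ± 0.19), Grin2b (-1.81 ± 0.33) and Gria2 (-0.97 ± 0.09) were lower, opposite to Gria4 and Grin2c. Gria2, which makes AMPA receptors impermeable to calcium, had 1388, 1327 and 1530 in cerebellum and 2567, 2828 and 2939 in cortex. Gria1 was not called by its brightest probe set (0.19 ± 0.12), while its other kept probe set was called higher (0.81 ± 0.15).

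**Figure D3:**
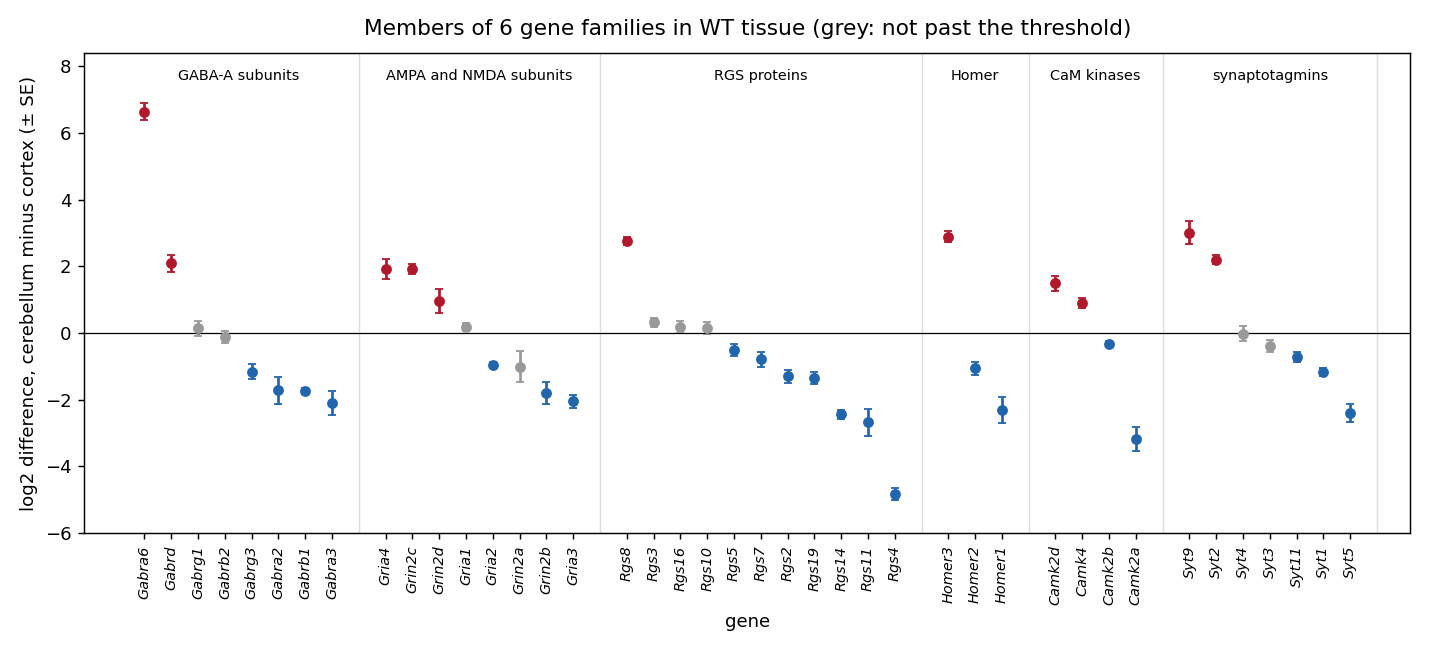
Difference in log2 signal, WT cerebellum minus WT cortex, with limma's SE, for the kept members of 6 gene families. Red members were called higher, blue members lower and grey members not called. In each family at least 1 member lies higher and at least 1 lower, as with Homer3 (2.89) and Homer1 (-2.31).

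Postsynaptic scaffolds and G protein regulators also held members called in both directions, beside 19.8% of all genes higher and 22.9% lower. Homer1, the scaffold with an activity-induced short form, was lower (-2.31 ± 0.40), as was Homer2 (-1.06 ± 0.19), opposite to Homer3. Of 11 kept genes for metabotropic glutamate receptors and scaffolds, 6 were lower and 2 higher. The scaffold Lin7b had signals of 79.1, 66.0 and 39.1 in cerebellum and 347, 291 and 283 in cortex (-2.38 ± 0.18), while its relative Lin7c was higher, with 1032, 1105 and 925 in cerebellum and 543, 535 and 570 in cortex (0.89 ± 0.11). Of 32 kept G protein and RGS genes, 15 were lower and 6 higher, with 3 higher without animal 3405 or without 3396. Rgs14 (-2.45 ± 0.15), Rgs11 (-2.68 ± 0.41) and Rgs2 (-1.30 ± 0.20) were lower, opposite to Rgs8. Receptors for monoamines, acetylcholine, opioids and peptides were lower for 20 of 31 kept genes and higher for 3. That count of 20 was 13 after quantile normalization or median scaling, 10 without animal 3405 and 11 without 3406. The muscarinic receptor Chrm1 (-3.34 ± 0.31), the somatostatin receptor Sstr2 (-3.18 ± 0.34) and the neuropeptide Y receptor Npy1r (at least 9.19-fold lower) were the largest. The 3 higher were the cannabinoid receptor Cnr1 (2.34 ± 0.47), the endothelin receptor Ednrb (1.94 ± 0.43) and Crhr1, the receptor for corticotropin-releasing hormone, with 287, 329 and 313 in cerebellum and 142, 133 and 146 in cortex (1.14 ± 0.16).

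Among potassium channels, 5 of 28 kept genes were higher and 12 lower (median -0.33), against 19.8% and 22.9% of all genes. Kcnj12, an inward rectifier, had signals of 245, 204 and 109 in cerebellum and 14.1, 22.5 and 9.38 in cortex (3.61 ± 0.31), and Kcne1l, an accessory subunit, differed by 3.27 ± 0.30. Another inward rectifier, Kcnj4, was lower (-1.57 ± 0.17), as were the two-pore channel Kcnk2 (-1.31 ± 0.12) and the large-conductance calcium-activated channel Kcnma1, with 501, 454 and 378 in cerebellum and 906, 1187 and 1061 in cortex (-1.24 ± 0.14). Of 17 calcium and sodium channel genes, 3 were higher, 1 without animal 3406, and 9 lower (median -0.42), among the lower Trpc4 (-3.07 ± 0.30) and Scn8a (-1.34 ± 0.20). Calcium-binding proteins were higher for 5 of 19 and lower for 8 (median -0.25), and 4 were lower after median scaling or without animal 3405. Hpcal1, a hippocalcin relative, had 2021, 1797 and 2020 in cerebellum and 569, 518 and 631 in cortex (1.77 ± 0.08), opposite to Hpca.

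Kinase and second messenger genes were more often lower than higher, beside 19.8% of all genes higher and 22.9% lower. Of 25 kept genes for calcium and calmodulin signalling, 15 were lower and 5 higher (median -0.49), with 9 lower after median scaling. Prkcb, a protein kinase C isoform, had signals of 1379, 1183 and 1250 in cerebellum and 2725, 2896 and 2442 in cortex (-1.08 ± 0.09), whereas Prkcd was higher (1.30 ± 0.16). Camk2d was higher (1.49 ± 0.23), opposite to Camk2a. Of 29 cyclic nucleotide genes, 13 were lower and 5 higher (median -0.29). The phosphodiesterases split, with Pde1a (-3.51 ± 0.27) and Pde1b (-1.62 ± 0.17) lower and Pde9a (1.67 ± 0.17) higher. Adcy2, an adenylyl cyclase, had 237, 216 and 208 in cerebellum and 983, 741 and 821 in cortex (-1.93 ± 0.11), and Pkib, an inhibitor of protein kinase A, had 347, 378 and 262 in cerebellum and 52.3, 46.9 and 67.8 in cortex (2.56 ± 0.22). Ngef (-4.20 ± 0.35) and Kalrn (-4.14 ± 0.15), guanine nucleotide exchange factors, were among the largest differences downward, and Kalrn had 145, 114 and 81.6 in cerebellum and 1799, 2240 and 1824 in cortex.

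Genes of the release machinery were also called in both directions. Of 44 kept synaptic vesicle and fusion genes, 18 were lower (40.9%), 9 higher (20.5%) and 17 not called (median -0.25). Over all genes 22.9% were lower and 19.8% higher. Stx1a, a syntaxin of the plasma membrane, had signals of 76.6, 97.8 and 101.4 in cerebellum and 1199, 1064 and 882 in cortex (-3.51 ± 0.16). Syt2, a fast calcium sensor, had 1172, 907 and 682 in cerebellum and 211, 199 and 177 in cortex (2.20 ± 0.13), and Syt5 was lower (-2.40 ± 0.27). Vamp1, a vesicle SNARE, was higher (1.88 ± 0.24), and its relative Vamp2 was not called by its brightest probe set (-0.24 ± 0.11) and was called higher by another (0.61 ± 0.21). The small GTPase Rab3d was higher (3.28 ± 0.32) and Rab3b lower (-2.46 ± 0.35). For each of these paralog pairs a test of the difference between the paralogs was not made.

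Immediate early genes, which neurons switch on with activity, were lower for 15 of 25 kept genes and higher for 3 (median -0.95), with 1 higher without animal 3405 or without 3406. With all animals these are 60% lower and 12% higher, beside 22.9% and 19.8% of all genes. Egr1 had signals of 82.7, 151 and 106 in cerebellum and 1059, 1221 and 1379 in cortex (-3.47 ± 0.24). Plk2 had 288, 251 and 192 in cerebellum and 1809, 1578 and 1690 in cortex (-2.81 ± 0.12), and Nr4a1 differed by -2.29 ± 0.32. Ier3 (0.86 ± 0.16) was among the 3 higher, and Jund was not called (-0.13 ± 0.14).

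Adhesion and guidance genes followed, beside 19.8% of all genes higher and 22.9% lower. Of 23 kept cadherin and adhesion genes, 12 were lower and 2 higher (median -0.65), with 1 higher without animal 3406 or without 3396. Cdh13 (-3.06 ± 0.30) and Pcdh7 (at least 7.03-fold lower) were the largest after Icam5, and Cdh15, M-cadherin, was higher, with signals of 102, 121 and 86.5 in cerebellum and 30.1, 22.7 and 24.8 in cortex (1.99 ± 0.38). Of 47 guidance, Eph and neurotrophin genes, 20 were lower (42.6%) and 8 higher (17%, near the share of all genes), with a median of -0.44. The Eph receptors Ephb6 (-2.75 ± 0.16), Epha5 (-2.67 ± 0.16) and Epha4 (-2.54 ± 0.17) were lower, and Epha8 was higher (1.46 ± 0.18). The secreted cue Ntn1 (1.25 ± 0.16) and its receptor Unc5c, with 374, 413 and 362 in cerebellum and 183, 191 and 192 in cortex (1.02 ± 0.11), were both higher. Of 50 Wnt, Hedgehog, BMP and Notch genes, 13 were higher (26%) and 11 lower (22%), near the 19.8% and 22.9% of all genes. The lower were 7 after quantile normalization, after median scaling, or without animal 3405 or 3406. Wnt7a (2.70 ± 0.32) was higher, and Dkk3, a secreted Dickkopf protein, had 77.8, 89.1 and 90.03 in cerebellum and 535, 489 and 598 in cortex (-2.66 ± 0.11).

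**Figure D4:**
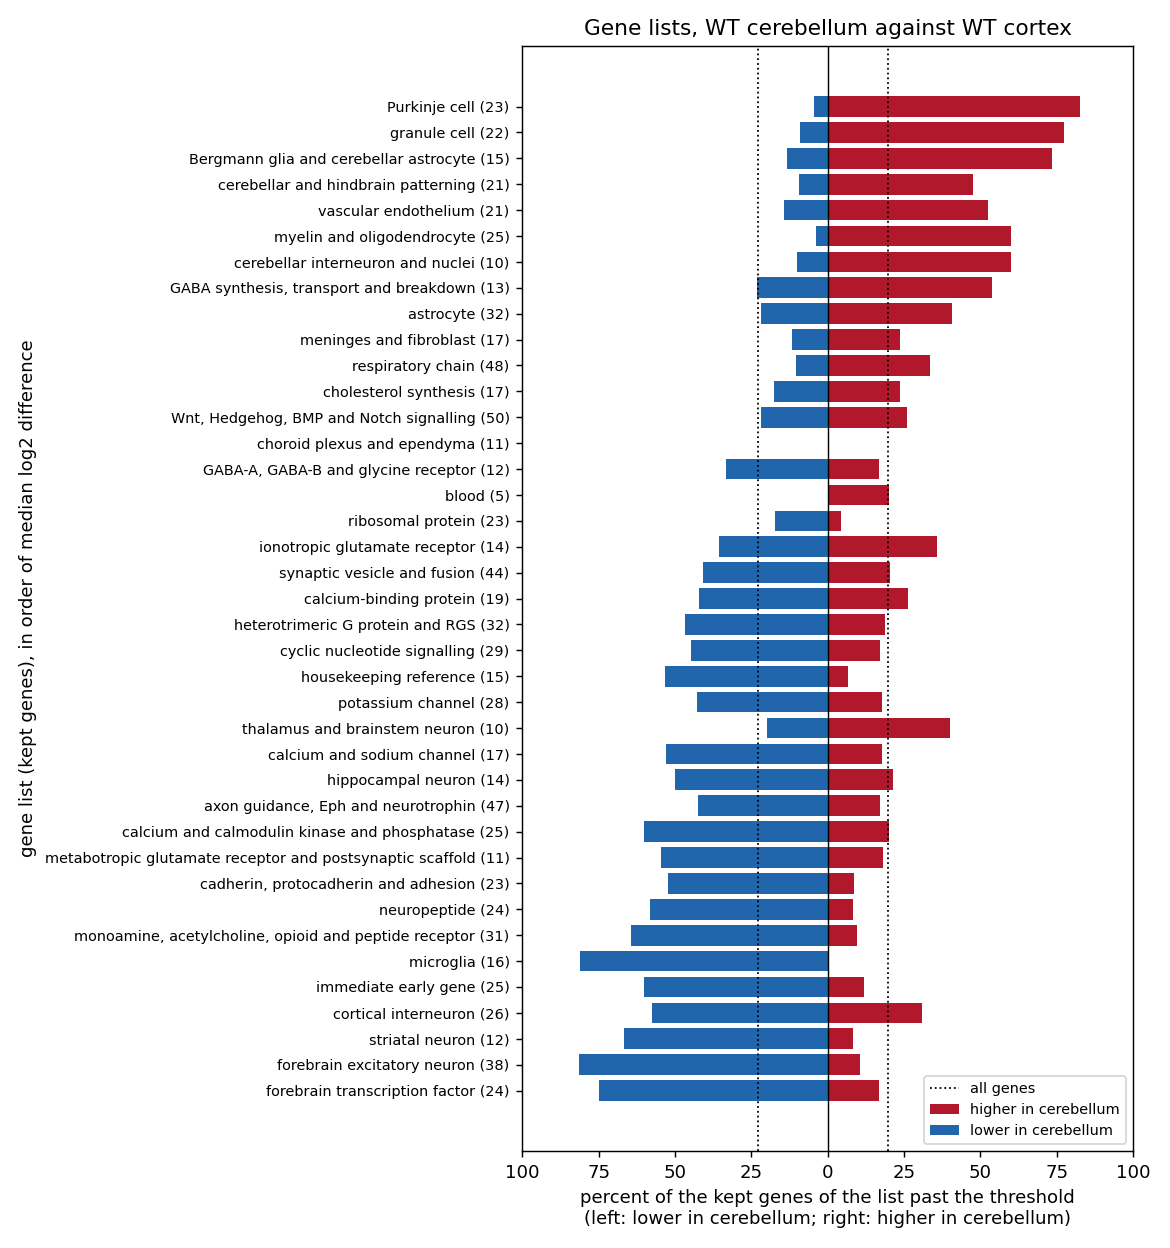
Percent of the kept genes of each of 39 lists called higher (red, right) or lower (blue, left) in WT cerebellum than in WT cortex, in order of the list's median difference, with the number of kept genes in brackets and dotted lines at the shares over all genes (19.8% higher, 22.9% lower). Purkinje cell genes lie at the top and forebrain transcription factors at the bottom, and lists share some members.

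Glial and vascular genes were next compared, beside 19.8% of all genes higher and 22.9% lower. Of 32 kept astrocyte genes, 13 were higher and 7 lower (median 0.21). S100b (1.63 ± 0.13) and the matrix protein Sparc, with signals of 982, 1353 and 1194 in cerebellum and 299, 372 and 368 in cortex (1.76 ± 0.14), were higher. The neurotensin receptor Ntsr2 (-1.47 ± 0.13), the thyroid hormone deiodinase Dio2 (-1.33 ± 0.17) and Clu, with 909, 899 and 857 in cerebellum and 1693, 1740 and 1702 in cortex (-0.95 ± 0.07), were lower. Of 16 microglia genes, 13 were lower and 0 higher (median -0.82). Csf1r, the receptor that microglia need to survive, had 141, 152 and 176 in cerebellum and 328, 306 and 353 in cortex (-1.07 ± 0.13), and the complement gene C1qb had 106, 108 and 119 in cerebellum and 236, 206 and 246 in cortex (-1.04 ± 0.14). Of 25 myelin and oligodendrocyte genes, 15 were higher and 1, the precursor marker Pdgfra (-0.81 ± 0.14), was lower (median 0.40). Without animal 3396 this became 7 higher and 2 lower. Mog, a myelin surface protein, had 519, 559 and 605 in cerebellum and 298, 321 and 241 in cortex (0.98 ± 0.20), while Mbp was not called by its brightest probe set (-0.13 ± 0.14) and was called lower by another (-0.93 ± 0.13). Of 21 endothelial genes, 11 were higher and 3 lower (median 0.46), among the higher Tie1 (1.39 ± 0.28), whose other kept probe set was not called (0.41 ± 0.26), and among the lower Cd34 (-1.79 ± 0.23). Of 17 meninges and fibroblast genes, 4 were higher, 7 after median scaling, and 2 lower, 1 without animal 3405, and of 5 blood genes only Alas2, needed for heme in red cells, was called (0.55 ± 0.20), a call lost without any 1 WT animal.

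Amino acid transport and housekeeping genes closed the comparison, beside 19.8% of all genes higher and 22.9% lower. Of 13 kept genes for GABA and glutamate synthesis, transport and breakdown, 7 were higher, 4 without animal 3405, and 3 lower. The chloride transporters Slc12a5 (0.94 ± 0.23) and Slc12a2 (0.48 ± 0.11) were higher, and the glutamate transporter Slc1a1 (-1.41 ± 0.13) and the glutamine synthetase gene Glul (-0.69 ± 0.14) were lower. Slc12a5 lost its call without animal 3405. Of 48 respiratory chain genes, 16 were higher and 5 lower (median 0.14), against 10 higher and 2 lower without animal 3396, 3 lower without 3405, and 2 lower after quantile normalization or median scaling. Atp5o, a stalk subunit of ATP synthase, had signals of 1624, 1618 and 1611 in cerebellum and 877, 941 and 922 in cortex (0.83 ± 0.08), and Cox6a2, a heart and muscle isoform of a cytochrome oxidase subunit, was lower (-3.04 ± 0.37). Ribosomal protein genes were higher for 1 of 23 and lower for 4, but higher for 6 and lower for 1 after median scaling. Cholesterol synthesis genes were higher for 4 of 17 and lower for 3, with 2 higher without any 1 WT animal, 1 lower without animal 3406, and 7 higher and 1 lower after median scaling. Of 15 reference genes often taken as stable, 8 were lower and 1 higher (median -0.30), with 4 lower after median scaling and 4 lower without animal 3405 or without 3406. Ywhaz had 1357, 1660 and 1714 in cerebellum and 2660, 2779 and 2438 in cortex (-0.74 ± 0.14), and Tbp was the higher one (0.64 ± 0.18), a call lost without animal 3405.

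The hippocampus arrays of the same WT mice, set beside these, share the cortex arrays in any contrast and are given as values only. Over all 6249 genes, the 3 hippocampus values lay wholly below the 3 cerebellum values for 21% and above them for 22.8%, and wholly above the cortex values for 16.7% and below them for 17.5%. The genes with the largest differences were chosen for cerebellum and cortex values that lay far apart and did not overlap. Nothing is therefore read from their counts against either region. For all 25 genes with the largest difference upward, the hippocampus values lay below the cerebellum values, and for 10 of the 25 they lay above the cortex values, as with Agt (241 ± 54.2 in hippocampus) and Calb2 (420 ± 40.8). For all 25 genes with the largest difference downward, the hippocampus values lay above the cerebellum values. For 10 of these they lay below the cortex values, as with Tbr1 (467 ± 77.1 in hippocampus) and Rgs4 (141 ± 30.6), and for 8 above them, as with Neurod6 (361 ± 58.8), Crym (508 ± 150) and Cpne6, a copine (1456 ± 84.5, against 504, 442 and 466 in cortex).

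The same comparison in the 3 KO mice used the arrays of other animals. It came from the same fit, with the same filter and a shared spread per probe set. The KO and WT calls are therefore not independent. There 39.4% of genes were called, 1220 higher (19.5%) and 1245 lower (19.9%), and of probe sets 39% were called, 18.8% higher and 20.2% lower. Of the 1240 genes higher in WT, 1178 had a KO difference in the same direction (95%) and 872 were also called in KO, which is 71.5% of the KO genes and 70.3% of the WT genes. Of the 1431 lower in WT, 1366 had the same direction (95.5%) and 893 were called, 71.7% of the KO genes and 62.4% of the WT genes. All 215 called genes with at least a 4-fold difference in WT had the same direction in KO, and 207 were called there. Across the 6249 genes, which are not independent replicates, the KO and WT differences had Pearson r = 0.88. For the 50 genes with the largest differences, the KO and WT differences lay a median of 0.32 and at most 0.90 apart on the log2 scale, with Gabra6 at 6.27 in KO and 6.64 in WT, Car8 at 5.65 in KO and 5.73 in WT, Tbr1 at -6.98 in KO and -6.99 in WT, and Sst at -4.92 in KO and -4.28 in WT. The gap was widest for Epop, a Polycomb-associated protein, at -3.26 in KO and -4.17 in WT, followed by Kcne1l at 2.36 in KO and 3.27 in WT, and Neurod6 differed by -3.20 in KO and -3.99 in WT. A test of the genotype by region interaction called 4 probe sets (0.0477%), which represent 4 of the 6249 genes (0.064%), and 961 probe sets had an unadjusted p under 0.05 in limma. None of the 215 genes was among the 4. The 4 calls are unstable, since 77 probe sets were called without WT animal 3405 and 0 without WT animal 3406.

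**Figure D5:**
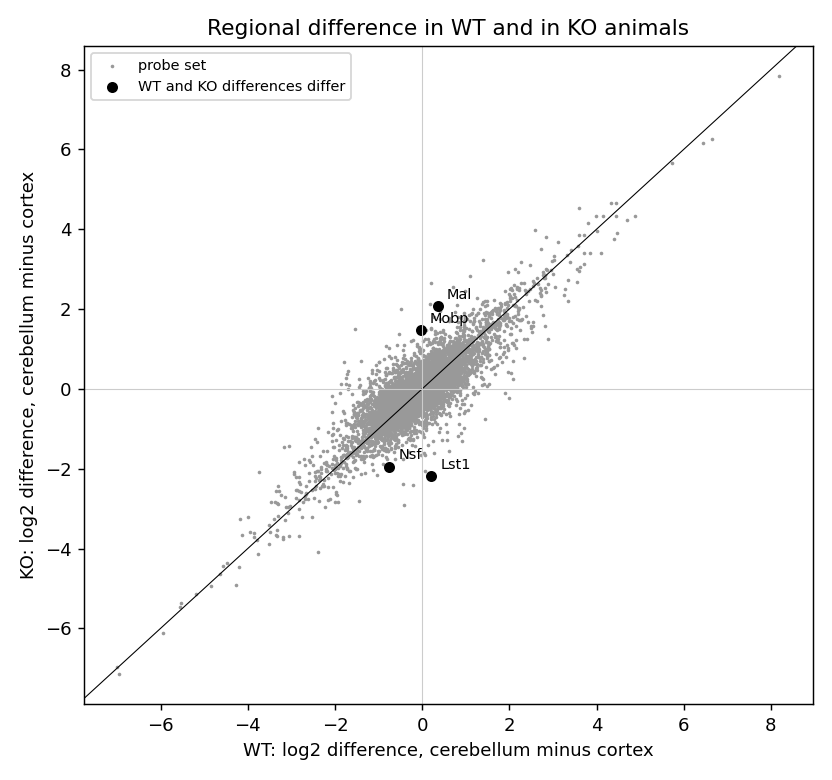
Log2 difference of each kept probe set, cerebellum minus cortex, in WT mice (horizontal) and KO mice (vertical), 3 animals each, with a line of equal difference. Black points are the 4 probe sets whose differences were called different between the genotypes (Mal, Mobp, Nsf and Lst1), and the probe sets with large differences lie along the line.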

How the data were processed

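The deposited values are intensity per probe set on a linear scale, in 1 table, scaled by the authors to a common trimmed mean of about 150.08. The sources used here do not give the software. Each sample is 1 region of 1 animal per the labels, and each animal gave cerebellum, cortex and hippocampus. Control probe sets (66) were removed. Low values were set to a floor, the 20th percentile (9.46), and log2 taken. Probe sets brighter than the 40th percentile of the array in 3 or more of 18 arrays were tested. The data hold no read depth, and the 3 arrays per group limit the precision.

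Of the probe sets, 10855 had 1 gene symbol in the platform annotation, which can be old, 396 had several and 1237 had none. RefSeq (GRCm38.p6) held 10839 of the 10855. Differences were tested, two-sided, with limma 3.58.1 (R 4.3.3), with 6 group means on 18 arrays, the animal as a fixed block (8 residual degrees of freedom), an intensity trend, Benjamini-Hochberg adjustment and a threshold of 0.05. The fit was also run on simulated data with known differences in a small part of the probe sets. Differences here were far more widespread, so nothing is read from that run. Cerebellum and cortex samples pair because they come from the same animal, and their residuals correlated at -0.084, 0.13 and 0.086 in the 3 WT animals, against -0.22 to 0.13 between different WT animals. The pairing thus rests on the labels and not on these values.

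The comparison and the 39 gene lists were chosen with earlier results of these data known. Genes could be named if among the 25 with the largest difference per direction (called, regions not overlapping), among up to 5 called members per direction and the 2 brightest members not called of each list, or among the 10 probe sets with the smallest interaction p, with their other probe sets. From the 342 genes this gave, those printed were picked for their role or size after their values were seen. Lists got no test of their own. Alternatives were other scalings, floors and filters, no intensity trend, no block, fewer arrays in the fit, each animal left out in turn, and the mean over a gene's probe sets.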

Additional observations from a re-analysis of the deposited data

Results flagged for a closer look

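The regional difference itself was called different between KO and WT mice, by the interaction test in limma, for 4 genes. These calls were unstable. The test called 0 probe sets with no intensity trend or without animal 3389, 3403 or 3406, and 77 without animal 3405. Lst1, a leukocyte gene, averaged 16.4 ± 1.28 in KO cerebellum and 75.3 ± 11.6 in KO cortex, and 49.6 ± 9.65 in WT cerebellum and 43.3 ± 11.7 in WT cortex (SD, n = 3 arrays each); the difference of differences, WT minus KO, was 2.40 ± 0.33 with an adjusted p of 0.014. Mobp, a myelin gene, averaged 1840 ± 129 in KO cerebellum and 674 ± 165 in KO cortex, and 1708 ± 101.3 in WT cerebellum and 1752 ± 197 in WT cortex (-1.51 ± 0.21). Mal, another myelin gene, averaged 937 ± 235 in KO cerebellum and 231 ± 99.8 in KO cortex, and 949 ± 215 in WT cerebellum and 730 ± 117 in WT cortex (-1.71 ± 0.24). Nsf, which takes SNARE complexes apart, averaged 516 ± 67.7 in KO cerebellum and 1994 ± 331 in KO cortex, and 901 ± 208 in WT cerebellum and 1499 ± 134 in WT cortex (1.19 ± 0.19, adjusted p = 0.044 in limma). Of these, only Nsf was called in the WT comparison. The other kept probe sets of Mobp were not called in the interaction. Their values were -1.55 ± 0.26, -1.33 ± 0.35 and -0.95 ± 0.28, with limma's adjusted p of 0.052, 0.19 and 0.23.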

How the results depend on the processing

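The counts of probe sets called in WT stayed within 1.5 times of 1602 higher and 2018 lower in every alternative run except median scaling, where 1304 were lower and 2328 higher; quantile normalization gave 1680 higher and 1649 lower. A fit to the 6 WT cerebellum and cortex arrays alone, which borrows no spread from other groups, gave 1134 higher and 1404 lower. Leaving out 1 animal gave 1186 to 1548 higher and 1439 to 1950 lower. The comparison is paired within animals, and with no replicate block 1493 were higher and 1928 lower; in the interaction it left 1 higher and 2 lower. The interaction's 2 higher and 2 lower probe sets were the least stable result: 4 were higher after median scaling, 1 with no filter, and 0 in either direction with no intensity trend. Leaving out 1 animal gave 0 to 52 higher and 0 to 25 lower, with 52 and 25 when WT animal 3405 was left out. Of 342 named genes, 267 were past the threshold. Stricter filters dropped some, so 220 of the 267 had a value in all 17 alternatives run for single genes, and 177 of these kept their call and direction in each. The mean over probe sets was run for lists only. Of the 342, 1 reversed: Cox6a1, which was not called at -0.02, was called higher under quantile normalization (0.27). The cause was not tested. Signals near background, and the 3 arrays per group, limit what can be said of dim genes.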

Other observations

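Where a gene had several probe sets, they did not always point the same way. Of 327 genes with at least 2 called probe sets, 275 had them in 1 direction and 52 in opposite directions. Cox6b2, a testis isoform of a cytochrome oxidase subunit, had differences of -1.96 ± 0.36, 2.65 ± 0.22 and 3.34 ± 0.30 (all 3 cortex arrays of the last under the floor), and Smarcd2, a chromatin remodelling subunit, -1.33 ± 0.37, 1.78 ± 0.23 and 2.64 ± 0.15. Of the lower probe sets of the 52 genes, 32 of 55 belonged to the highest-numbered series of the array's identifiers, against 5 of 57 of the higher ones. Over all 672 kept probe sets of that series, the median difference was -0.43, with 7.74% higher and 36.3% lower; over the other 7710 it was -0.04, with 20.1% higher and 23% lower. The median log2 signal was 6.14 for those 672 and 7.07 for the others. These genes were chosen after their values were seen, and the part of signal level in this was not tested.

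The balance of calls also followed signal. Among the 1563 genes of lowest mean signal (13.7 to 65.7), the median difference was -0.22, with 198 higher and 372 lower; among the 1562 of highest signal it was 0.01, with 396 higher and 379 lower. After quantile normalization the medians were 0.03 and -0.02.

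For 5 genes the difference was called in opposite directions in KO and WT mice: Scd2, a desaturase (0.36 in KO and -0.29 in WT), Nfix (-0.55 in KO and 0.32 in WT), Clptm1 (-0.57 in KO and 0.49 in WT), Spns1 (-0.31 in KO and 0.26 in WT) and Lmna (-0.34 in KO and 0.45 in WT). Their interaction adjusted p in limma lay between 0.082 and 0.17, and they were chosen after their values were seen. The WT values of Nfix overlapped between the regions. Its WT call was lost with no filter, no intensity trend or no block, with the 9 or 6 WT arrays only, and without animal 3406 or 3396. Another kept probe set of Nfix was not opposite, at 0.37 in KO (not called) and 1.68 in WT.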
